A study of Homo sapiens with 5 samples.

Results

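Of the sites that a FOXB1 antibody enriched in both wild-type libraries of human pre-neural crest cells, 608 combined a tall peak with few input tags and lay away from the chromosome ends. FOXB1 is a forkhead transcription factor, a family whose members bind DNA through a winged-helix domain and are known for recognizing short A/T-rich motifs. In mice it is known for its part in the developing neural tube and hypothalamus. Pre-neural crest cells are a Wnt-induced stage that precedes the neural crest, the migratory population that forms peripheral neurons, glia, pigment cells and much of the facial skeleton.

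Chromatin immunoprecipitation and sequencing (ChIP-seq) was done at day 3 of differentiation. All cells derive from the established embryonic stem cell line WA01 and were grown with 3 µM CHIR 99021, a GSK3 inhibitor that activates Wnt signalling, and at first with 10 µM of the ROCK inhibitor Y-27632. The series holds 2 unedited libraries (WT), 2 libraries from a FOXB1 dgRNA-KO line whose FOXB1 DNA-binding domain was removed by CRISPR/Cas9 (KO), and 1 wild-type input without antibody. Depth was 19091152 and 22637495 tags (aligned reads) in the WT libraries and 15106068 and 16745101 in the KO libraries. The KO cells are described as 1 line, with nothing stated on whether it is a single clone. The files hold no expression value, so neither the cell type nor the loss of FOXB1 was checked against marker genes.

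The sites were chosen by measured values, so their heights and input tags are given as a description. A peak of WT replicate 1 counted when it overlapped a WT replicate 2 peak by at least 1 bp and the mean height of both was at least 12, where height is tags per 10000000 tags of the library. It also had to have 3 or fewer input tags in both lists, lie on chromosomes 1 to 18 or 20 to 22, and have its centre more than 5 Mb from both hg19 ends. The lists held 3348 and 4388 WT peaks, 2158 sites were shared, and 1782 shared sites lay in these interiors. The 608 tall low-input sites were 34.1% (exact Clopper-Pearson 95% interval 31.9 to 36.4%) of the interior sites. Both lists count tags of the same input, so 3 or fewer input tags in both is not 2 separate measurements. The other 1174 interior sites comprised 1096 lower sites with few input tags and 78 sites above the input limit in 1 or both lists.

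The choice left out 105 sites that met the same limits of height and input elsewhere: 73 within 5 Mb of an end, 28 on chromosome 19, 3 on chromosome X and 1 on chromosome Y. No tall low-input site had more than 1 partner in WT replicate 2, and 0 of them shared a partner. Together the 608 windows held 16693 tags in WT replicate 1 and 19865 in WT replicate 2. These were 0.0874% (Wilson 95% interval 0.0861 to 0.0888%) and 0.0878% (0.0865 to 0.0890%) of all tags. The sites were chosen by the mean of both heights, so the likeness of these shares is no measure of agreement between the libraries. Intervals here and below cover counting error only.

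Most tall sites stood only a little over the limit. Mean heights ran from 12 to 38 with a median of 13.5, and 209 of the 608 were under 13. At the other end 146 reached 15, 32 reached 20 and 4 reached 30. In WT replicate 1 the heights ranged from 8.38 to 41.4 (median 13.6), which was 16 to 79 tags (median 26). In WT replicate 2 they ranged from 8.39 to 45.1 (median 13.7), or 19 to 102 tags (median 31). Both heights were at least 12 at 340 sites (55.9%), so the others entered through the mean.

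Sites on either side of the height limit had nearly the same heights. Just inside the height limit were chr10:97118291-97118607 with heights of 15.2 and 8.83 in WT replicates 1 and 2, and chr11:122976885-122977201 and chr13:36335956-36336272, each with 9.43 and 14.6. Just outside were chr11:27681042-27681358 and chr3:52373659-52373975, each with 14.7 and 9.28, and chr1:178991369-178991685 with 11.5 and 12.4. At the limit of 3 input tags the tallest sites were chr7:29328178-29328494, chr4:54930611-54930927 and chr12:115135811-115136127. The tallest sites beyond it were chr4:49120988-49121304 (heights of 81.2 and 77.7 with 24 and 18 input tags), chr16:33866340-33866656 (54.0 and 44.6 with 15 and 14 input tags) and chr2:33141124-33141440 (38.2 and 33.1 with 7 and 8 input tags). The input limit thus removed the very tallest interior peaks.

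**Figure D1:**
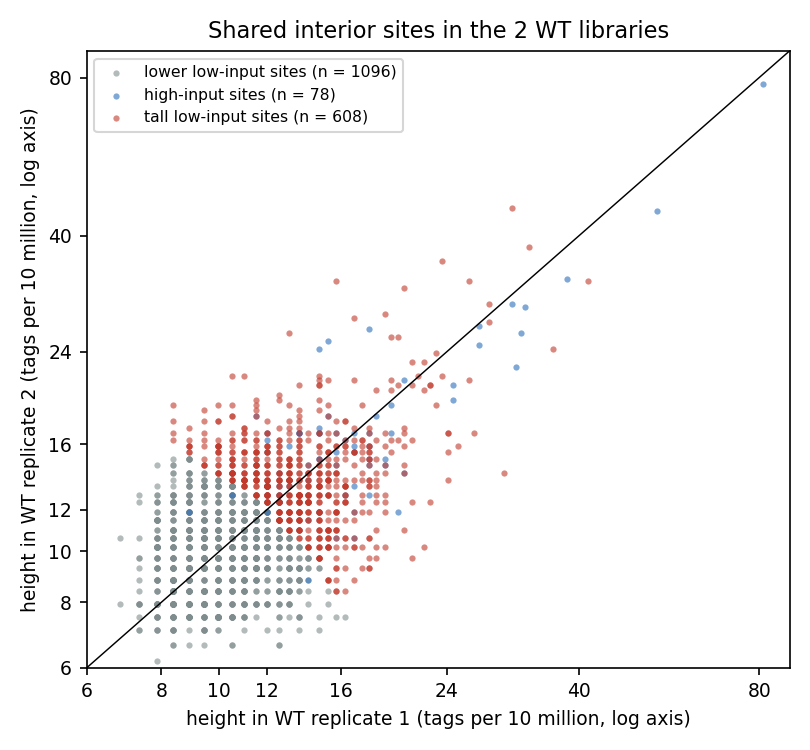
Height in WT replicate 1 (horizontal, log axis) against WT replicate 2 (vertical, log axis), in tags per 10000000, for the 1782 shared interior sites; each point is a site and the line marks equal heights. The 608 tall low-input sites lie above the 1096 lower sites by construction, and the 2 points farthest to the upper right are high-input sites.

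The tallest low-input sites were spread over many chromosomes. The first was chr5:87960465-87960781, with heights of 30.9 and 45.1 in WT replicates 1 and 2 and 2 and 1 input tags. A second tall site on the same chromosome, chr5:72541962-72542278, had heights of 36.1 and 24.3 and was higher in the other library. Chromosome 5 held 4 of the 20 tallest sites, with chr5:171166318-171166634 (heights of 23.0 and 23.9) and chr5:97705865-97706181 (21.0 and 23.0) nearly level between libraries.

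Chromosome 14 held 3 of the 20. These were chr14:68400940-68401256 (heights of 41.4 and 32.7), chr14:56584760-56585076 (23.6 and 35.8) and chr14:100305109-100305425 (22.0 and 23.0). The second differed most between the libraries, by 1.52-fold, and the last was nearly level. Their tags also stood well above the surrounding 10 kb, by 23.4 and 22.5 times at the first and 16.2 and 21.0 times at the second.

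Others of this rank lay alone on their chromosome or in pairs. Chromosome 1 had chr1:45008912-45009228 (heights of 33.0 and 38.0) and chr1:18973356-18973672 (15.7 and 32.7). Chromosome 4 had chr4:54930611-54930927 (28.3 and 27.4) and chr4:169074969-169075285 (18.9 and 28.3). Chromosome 7 had chr7:29328178-29328494 (26.2 and 32.7) and chr7:113726047-113726363 (19.4 and 25.6), and both were higher in WT replicate 2. On chromosome 3 the libraries went opposite ways, with chr3:71632659-71632975 at 16.8 and 27.8 and chr3:28833201-28833517 at 29.9 and 14.1. The remaining members of the 20 were chr11:6303294-6303610 (28.3 and 29.6), chr20:30102041-30102357 (20.4 and 31.8), chr12:115135811-115136127 (26.2 and 21.2), chr10:47058691-47059007 (19.9 and 25.6) and chr21:10990915-10991231 (23.6 and 21.6). In all, 14 of the 20 were higher in WT replicate 2 and 6 in WT replicate 1.

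**Figure D2:**
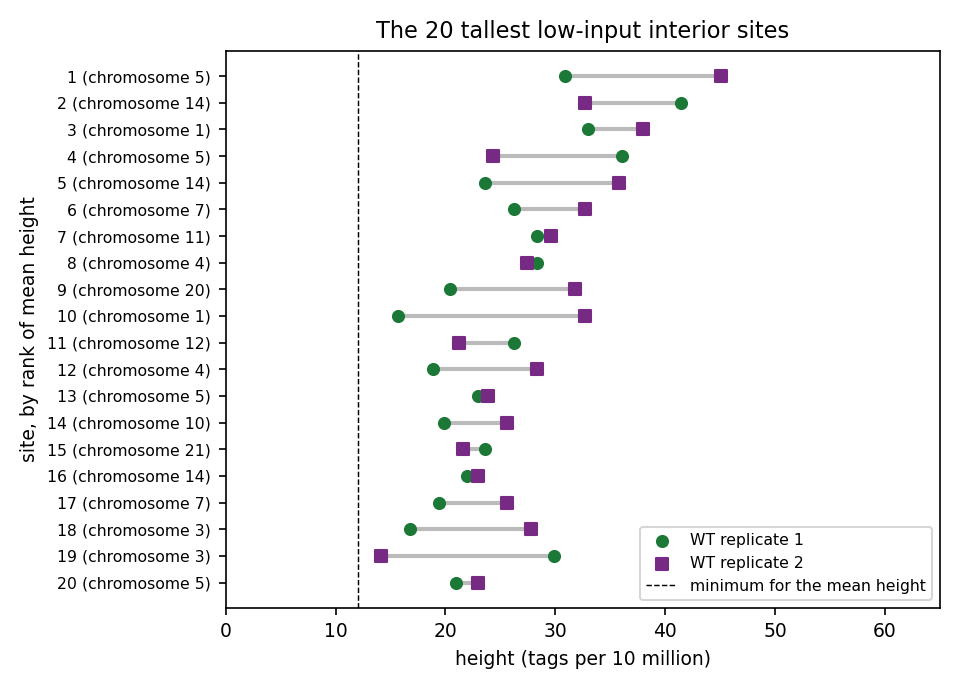
Height in tags per 10000000 (horizontal) of the 20 tallest low-input interior sites, ranked from the top by mean height, in WT replicate 1 (circles) and WT replicate 2 (squares), joined by a grey line; the dashed line marks the minimum of 12 for the mean. The longest lines belong to sites 10 (15.7 and 32.7) and 19 (29.9 and 14.1).

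Input tags were too few to rank these sites by their fold over input. The input stood at its floor of 0.5 tags in both lists at 112 of the 608 sites (18.4%), and 300 (49.3%) had 1 or fewer in both. Fold over input had medians of 15.9 (WT replicate 1) and 15.8 (WT replicate 2). At 4 sites with a mean height of 20 or more the input was at its floor in both lists, on chromosomes 1, 3, 4 and 20. The folds there, such as 82.3 and 39.0 at chr3:28833201-28833517, rest on the floor and are not exact.

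The spread between the WT libraries at single sites is given as a description. The choice set a minimum for the mean height and required a called peak in both lists, which together bound how far the heights can differ. Tags of each site were compared by a two-sided exact binomial test against the share expected from the library totals, with Benjamini-Hochberg adjustment over all 2158 shared sites. It compares these libraries, not conditions. At an adjusted p under 0.05 the test called 0 of the 608 tall low-input sites, and 0 of all shared sites (0%). The smallest adjusted p was 0.65. With medians of 26 and 31 tags and a peak required in both lists, most sites could not have passed that adjusted threshold, so the count of 0 does not show that the libraries were alike. At an unadjusted p under 0.05 it passed 44 tall low-input sites (7.24%), 22 higher in each library, against 67 of all shared sites (3.1%). Lower sites had still less room to differ, so nothing is read from the difference between these shares.

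The height ratios themselves were also shaped by the choice. The log2 ratio of WT replicate 2 over WT replicate 1 had a median of -0.02 and an SD of 0.42 across the 608 sites, against -0.02 and 0.34 across the other 1174. Requiring a height of 12 in each list, and not only for the mean, lowered that SD to 0.29. The tags of the 608 sites differed with a chi-square per degree of freedom of 1.24, where counting noise alone gives 1, while the value was 0.605 for the other interior sites. The heights differed by over 1.5-fold at 104 of the 608 sites (17.1%) and by over 2-fold at 8 (1.32%), against 103 (8.77%) and 3 (0.256%) of the other 1174. Of these 1174, 1096 had a mean height under 12 and were called in both lists, which narrows their ratios. The SD, chi-square and shares of the 2 sets therefore cannot be compared as measures of reproducibility.

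The 5 widest ratios went in both directions. At chr13:36515548-36515864 the heights were 8.38 and 19 in WT replicates 1 and 2, a 2.27-fold ratio with an unadjusted exact binomial p of 0.00389. At chr15:60419588-60419904 they were 8.38 and 17.7. The opposite direction held at chr10:77190057-77190373 (21.0 and 9.72), chr14:61110720-61111036 (22.0 and 10.2) and chr3:28833201-28833517 (29.9 and 14.1, unadjusted exact binomial p = 0.000603). The smallest unadjusted p of any shared site, 0.00052, was that of chr1:18973356-18973672. Heights were equal in both lists at 4 sites, among them chr18:67646585-67646901, chr20:13693890-13694206 and chr4:137124353-137124669, each with 14.1 in both.

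The mean of 2 libraries chose the sites, so how well they recur was looked at from 1 list at a time. Of 747 interior peaks of WT replicate 1 with a height of at least 12 and 3 or fewer input tags, 675 overlapped a peak of WT replicate 2, or 90.4% (exact 95% interval 88.0 to 92.4%). For lower peaks with few input tags it was 1050 of 1874, or 56.0% (53.7 to 58.3%). Chosen in WT replicate 2, 602 of 697 tall peaks were found in WT replicate 1, or 86.4% (83.6 to 88.8%), against 1115 of 2540 lower ones, or 43.9% (42.0 to 45.9%). Lower peaks had median heights of 8.90 and 8.83 in WT replicates 1 and 2, near the heights of 8.38 and 7.51 that the caller's tag thresholds correspond to. Listed heights did not stop there, and went down to 6.81 and 6.18 at shared interior sites. Peaks so near the calling limit have less room to be called again, so their lower recurrence may follow in part from the split by height. This was not tested. At a height of 20 or more, 40 of 40 and 39 of 39 peaks were found in the other list, which allows true shares from 91.2% and 91.0%.

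At tall peaks, heights were lower in the library that had not done the choosing. Tall peaks of WT replicate 1 that were found had a median of 13.6 there and 12.4 in WT replicate 2. Those chosen in WT replicate 2 had 14.1 there and 12.6 in WT replicate 1. Peaks chosen for a height under 12 and found went the other way. Their medians were 9.95 in WT replicate 1 and 10.2 in WT replicate 2 when chosen in the first. When chosen in WT replicate 2 they were 9.72 there and 10.5 in WT replicate 1. A choice by the height in 1 list brings such shifts by itself, so nothing is read from them. Tall peaks without a partner were the shorter ones, with medians of 12.6 and 13.3 in WT replicates 1 and 2.

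The shape of the peaks was then compared, as a description with no test, because it is computed from the same tags as the height. The focus ratio is the share of a peak's tags that lie on the side of the centre their strand predicts, and it is high where fragments surround 1 point. Its median over the 608 sites was 0.875 in WT replicate 1 and 0.882 in WT replicate 2. The other interior sites had 0.846 and 0.850, and among these the high-input sites had 0.846 and 0.825. Both ratios were at least 0.8 at 464 tall sites (76.3%, exact 95% interval 72.7 to 79.6%) and at 660 of the others (56.2%, 53.3 to 59.1%). At 0.9 the tall and high-input sites were alike, with 111 (18.3%) and 14 (17.9%), against 116 of the lower sites (10.6%). A ratio under 0.7 in either list was found at 30 tall sites (4.93%), 170 of the 1096 lower sites (15.5%) and 24 of the 78 high-input sites (30.8%).

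Among the tall sites themselves, height and focus ratio were not graded. Split by mean height into 4 classes of 152 sites each, from the lowest to the highest, the median focus ratio in WT replicate 1 was 0.873, 0.879, 0.875 and 0.875. In WT replicate 2 it was 0.888, 0.891, 0.882 and 0.872. Spearman's rho across the 608 sites was -0.04 between mean height and mean focus ratio, and 0.33 across the 1096 lower sites. Both values come from the same tags. Between the libraries the focus ratios of the 608 sites were related with a rho of 0.35.

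The best-centred sites were of ordinary height. They were chr10:127892355-127892671 (focus ratios of 0.972 and 0.963 in WT replicates 1 and 2), chr4:12186155-12186471 (0.962 and 0.970) and chr15:59960821-59961137 (0.969 and 0.961), with mean heights of 14.2, 12.7 and 17.1. The least centred were a site on chromosome 8 at 129053332 to 129053648 (0.595 and 0.380), chr13:36335956-36336272 (0.607 and 0.511) and chr9:132158806-132159122 (0.673 and 0.512). Among the 20 tallest sites, 16 had both ratios at 0.8 or more. Of the exceptions, chr10:47058691-47059007 (0.738 and 0.625) and chr21:10990915-10991231 (0.750 and 0.662) were low in both libraries, and they also had the lowest mean folds over the surrounding 10 kb of the 20 (5.92 and 6.83 at the first, 9.48 and 7.58 at the second).

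The centres of tall sites lay closer together in the WT libraries than those of the lower sites, and at the median no closer than those of the high-input sites. The distance between the WT centres had a median of 28 bp (quartiles 13 and 45) at the 608 sites and of 35 bp (17 and 63) at the other interior sites, made up of 36 bp at the lower and 27.5 bp at the high-input sites. Centres lay within 10 bp at 17 of the 78 high-input sites (21.8%) and at 130 of the 608 tall sites (21.4%). It was 50 bp or less at 474 tall sites (78.0%, exact 95% interval 74.5 to 81.2%) and at 769 others (65.5%, 62.7 to 68.2%). It exceeded 100 bp at 34 tall sites (5.59%) and 157 others (13.4%), among them 13 of the 78 high-input sites (16.7%). The WT replicate 2 centre was at the higher coordinate at 302 of the 608, so neither library was shifted to one side. The median offset went from 31.5 bp in the lowest height class through 30 and 27 to 24 bp in the highest.

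Sites with larger offsets had lower focus ratios. Median focus ratios were 0.889 and 0.895 in WT replicates 1 and 2 at the 130 sites within 10 bp and 0.809 and 0.769 at the 34 sites over 100 bp. Their median mean heights were alike, at 13.8 and 13.6. The largest offsets were 299 bp at chr22:36424735-36425051, where the windows barely overlapped and the heights were 22.5 and 20.8, 215 bp at chr13:36335956-36336272 and 198 bp at chr10:47058691-47059007. Both of the latter were named above for low focus ratios.

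**Figure D3:**
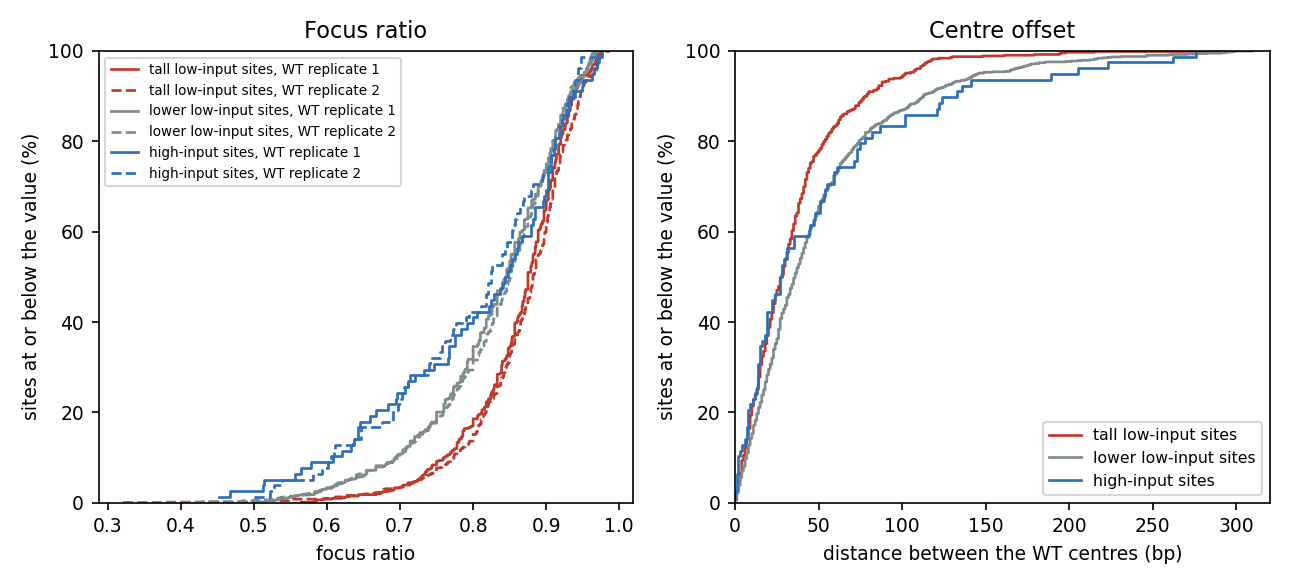
Cumulative share of sites (vertical, percent) by focus ratio in each WT library (left) and by distance in bp between the WT centres (right), for 608 tall low-input, 1096 lower low-input and 78 high-input interior sites. By median, the focus ratios of the tall sites are the highest (0.875 and 0.882), and 78.0% of these sites have centres within 50 bp.

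Enrichment over the surrounding 10 kb was high at the tall sites, as their height brings with it. The median fold over local tags was 10.8 and 10.4 in WT replicates 1 and 2, against 7.99 and 7.71 at the other interior sites. Both folds reached 10 at 242 tall sites (39.8%) and 103 others (8.77%). The high-input sites, most of which are tall as well, had medians of 11 and 10.2 and both folds at 10 or more at 33 of 78 (42.3%), so the difference lay with the lower sites. Over the height classes the medians in WT replicate 1 rose from 9.74 to 13.4 and in WT replicate 2 from 9.23 to 12.4. Taking each library by itself, the highest fold over local tags at any tall site was 36.0 in WT replicate 1 and 32.1 in WT replicate 2. The lowest in each was 4.20 and 4.15, close to the caller's minimum of 4.

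Tall low-input sites occurred on all 21 chromosomes considered. Their density was 0.233 per Mb (exact Poisson 95% interval 0.215 to 0.252) over 2612 Mb of interior, unsequenced parts included. Chromosome 15 had the most for its length, with 30 sites or 0.324 per Mb (0.219 to 0.463), and chromosome 13 the fewest, with 18 sites or 0.171 per Mb (0.101 to 0.270). This order counts unsequenced parts as length and could change without them. These intervals overlap, which does not show that the densities were equal. The difference was not tested, and the 2 chromosomes are the extremes of the 21, picked after their values were seen. The largest numbers were 48 on each of chromosomes 1 and 2.

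The share of shared sites that were tall differed more. On chromosome 15 it was 30 of 64, or 46.9% (exact 95% interval 34.3 to 59.8%), and on chromosome 17 it was 14 of 74, or 18.9% (10.7 to 29.7%). Those were the highest and lowest of the 21, picked after their values were seen, and the difference was not tested. Chromosome 17 had the densest shared sites of all interiors, at 1.04 per Mb, but 0.197 tall low-input sites per Mb (0.108 to 0.330), under the mean of all interiors. Next in density of shared sites were chromosomes 18 (0.881 per Mb) and 20 (0.868 per Mb), with tall shares of 30.0% and 30.4%. The values depended on the limits. The shares on chromosomes 15 and 17 were 68.8% (55.9 to 79.8%) and 52.7% (40.7 to 64.4%) with a mean height of at least 10, where the intervals overlapped, and 14.1% and 2.70% with at least 15. They were 25% and 9.46% with a height of 12 in each list, 20.3% and 4.05% with 1 or fewer input tags, and 50% and 25.7% with 5 or fewer. Chromosome 15 had the higher share in each of these 5 settings, but they cut the same shared sites again and give no separate support.

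**Figure D4:**
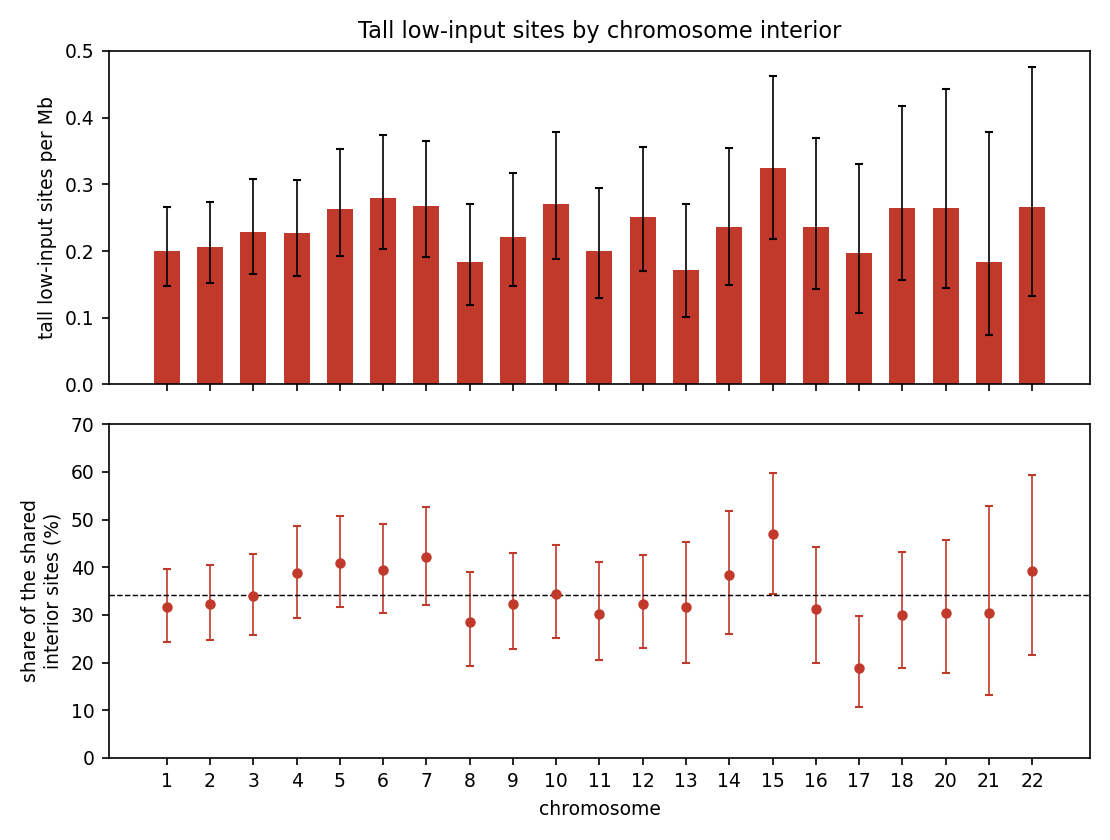
Tall low-input sites per Mb of interior (top, bars with exact Poisson 95% intervals) and their share of the shared interior sites (bottom, points with exact Clopper-Pearson 95% intervals) for 21 chromosomes. The dashed line is the share over all interiors, 34.1%; chromosome 15 (46.9%) is highest and chromosome 17 (18.9%) lowest.

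Distance from the chromosome ends was looked at beyond the 5 Mb that the choice used. Shared sites were sparser far from the ends, though not at every step. The lengths again included unsequenced parts, whose spread over these distances was not checked. Their density was 0.962 per Mb (exact Poisson 95% interval 0.834 to 1.10) between 5 and 10 Mb of the nearer end and 0.547 (0.492 to 0.608) beyond 60 Mb. Between these it was 0.717 at 10 to 20 Mb, 0.773 at 20 to 40 Mb and 0.586 at 40 to 60 Mb. Only the longer chromosomes reach beyond 60 Mb, so distance and chromosome cannot be told apart. Tall low-input sites had 0.295 per Mb (0.226 to 0.378) at 5 to 10 Mb and 0.200 (0.167 to 0.238) beyond 60 Mb, with 0.243, 0.262 and 0.201 between. Their share of the shared sites was 30.7% (24.4 to 37.6%) between 5 and 10 Mb, 33.9% between 10 and 20 Mb, 33.8% between 20 and 40 Mb, 34.3% between 40 and 60 Mb and 36.5% (31.5 to 41.8%) beyond. These intervals overlap. In the excluded ends the share was lower, at 26.6% (21.5 to 32.3%), 73 of 274 sites, against 34.1% (31.9 to 36.4%) in the interiors. This difference was not tested, and the slight overlap of the intervals does not show that the shares were alike. On chromosome 19 the share was 33.3% (23.4 to 44.5%).

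**Figure D5:**
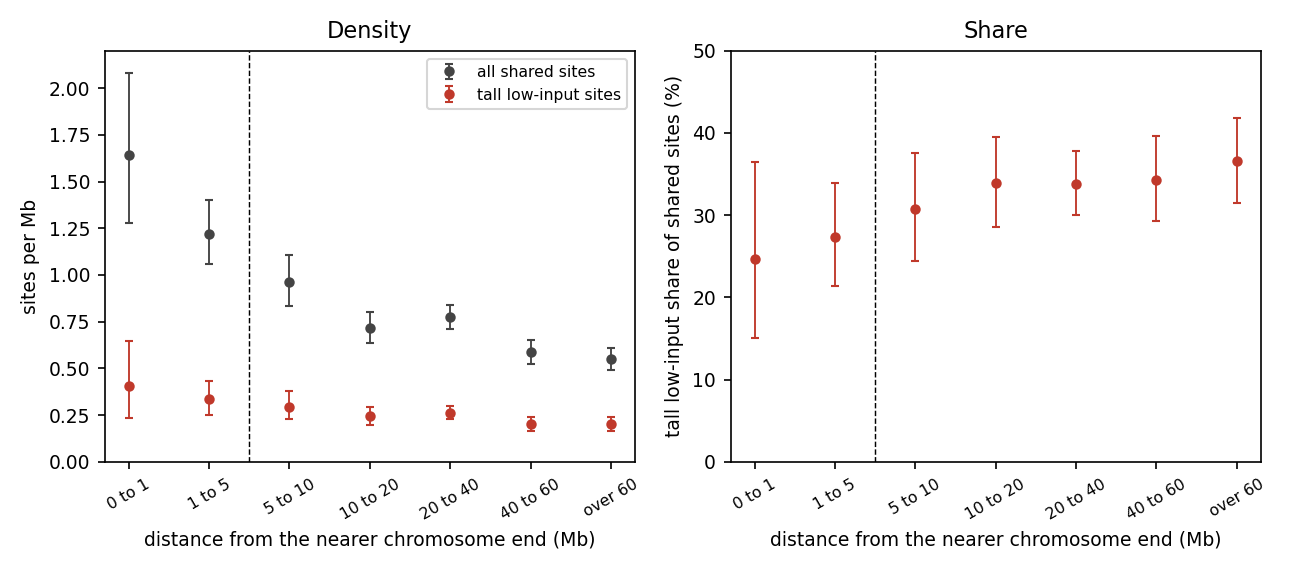
Sites per Mb (left) for all shared sites and for tall low-input sites, and the tall low-input share of shared sites in percent (right), by distance in Mb from the nearer end of chromosomes 1 to 18 and 20 to 22, with exact 95% intervals (Poisson left, Clopper-Pearson right). Left of the dashed line, at 5 Mb, sites meet the limits of height and input but were left out by position. The density is lower far from the ends than near them, though not at every step, and the share lies between 24.6% and 36.5%.

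Tall sites were mostly solitary. Another shared site lay within 100 kb at 97 of the 608 (16%, exact 95% interval 13.1 to 19.1%) and at 201 of the other 1174 interior sites (17.1%, 15.0 to 19.4%), so the intervals overlapped. Within 10 kb it was 15 (2.47%) and 20 (1.70%). The median distance to the nearest shared site was 442 kb and 414 kb. Pairs of tall sites within 100 kb numbered 18, made of 36 sites on 11 chromosomes.

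The closest pair was chr6:11276484-11276800 and chr6:11277393-11277709, with centres 909 bp apart. Their heights in WT replicate 1 were 20.4 and 16.8, and in WT replicate 2 they were 11 and 10.6, so both were higher in WT replicate 1. In the pair chr1:18971499-18971815 and chr1:18973356-18973672, 1857 bp apart, the first had 18.9 and 15.9 in WT replicates 1 and 2 and the second 15.7 and 32.7. The pair chr7:5463485-5463801 and chr7:5466694-5467010, 3209 bp apart, had 19.9 and 20.8, and 13.1 and 26.1. The fourth, on chromosome 4 at 24474443 and 24483488, was 9045 bp apart, with 8.90 and 15.9, and 11 and 13.7. The tallest site of all had a tall neighbour as well, chr5:87979617-87979933, at 19152 bp with heights of 13.6 and 11.5. The caller kept peaks at least 634 and 642 bp apart in WT replicates 1 and 2. Its fragment lengths of 182 and 134 bp were shorter than the distance in any of these pairs. Neighbouring sites may still not be independent, which was not tested.

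The last comparison asked whether these sites overlapped peaks called in the line without the DNA-binding domain, using the KO lists that the choice had not used. None of the 608 tall low-input sites overlapped any of the 11 and 12 KO peaks: 0 of 608, with an exact 95% upper limit of 0.605%. It was also 0 of the 1096 lower sites and 1 of the 78 high-input sites. That one, chr16:33865027-33865343, had heights of 32.0 and 26.1 in WT and 4 and 5 input tags. Of the 23 KO peaks, 20 lay in the same interiors and 17 of these had 3 or fewer input tags, but 0 of the 17 reached a height of 12. With so few KO peaks, few of the 608 sites could have overlapped any. The upper limit of 0.605% therefore concerns overlap with called peaks and does not bound enrichment in the KO libraries.

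The KO lists hold called peaks only, so no KO height can be given for the 608 sites. The thresholds of these lists, 12 and 13 tags, correspond to heights of 7.94 and 7.76, in windows of 179 and 186 bp against 317 and 321 bp in WT, so heights in the lists are not on 1 footing. A single tall low-input interior peak of WT replicate 1, chr17:25296757-25297073, did overlap a KO peak. It had a height of 16.8 and 3 input tags and no partner in WT replicate 2, and so was not among the 608.

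Near a KO peak, the tall sites were few. A KO peak lay within 100 kb of 2 of the 608 (0.329%) and 5 of the 1174 others (0.426%). These 5 were 1 of the 1096 lower sites (0.0912%) and 4 of the 78 high-input sites (5.13%). The nearest of the 608 was chr16:33873893-33874209, 9001 bp from a KO replicate 2 peak, with heights of 13.6 and 17.2 and low focus ratios of 0.643 and 0.651. The others were chr2:112721775-112722091, 19828 bp from a KO replicate 1 peak (heights of 11.5 and 14.6, focus ratios of 0.920 and 0.946), and, farther away, chr21:10596893-10597209 at 146710 bp (heights of 14.1 and 10.2). Peaks were not placed at genes and no sequence was read, because the gene and sequence tables used here are of another assembly than the peaks.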

How the data were processed

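Peak lists of 4 ChIP-seq libraries in hg19 were used; the input entered only through them. Peaks were called per library with HOMER findPeaks in factor mode against 1 input tag directory, at a false discovery rate of 0.001 and at least 4 times the input and the surrounding 10 kb, per the file headers. BWA 0.7.17, Picard and HOMER 4.10 are named with no role in the submitters' processing notes. That directory is named with several day labels, so input tags cannot be tied to day 3 alone.

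The deposited normalized tag count is a signal per 10000000 tags; the deposited input tags are a signal too, with a floor of 0.5. The deposited focus ratio is a fraction, and the deposited folds over input, local and clonal tags are linear ratios. The deposited findPeaks score and the deposited unadjusted p-values were not used beyond the caller's filter. Heights, folds and focus ratios per peak are the authors' values.

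Whole tags were recovered from heights and library totals (all within 0.108 of a whole number). WT lists were joined by overlap, taking the tallest partner. Tags were compared per site by exact binomial tests adjusted over all 2158 shared sites; the join and the test were tested on simulated data. Other sets of sites were compared by counts, medians and intervals, with no test, since sites are not replicates. Nothing in the labels says that the libraries came from separate cultures, so differences between them may be technical. Named sites followed a rule: the 20 tallest, and the extremes of limits, ratio, focus ratio, offset, spacing and distance to KO peaks. The sites, lists and rule were chosen with earlier results of these data known. Computation used scipy 1.17.1, pandas 2.3.3 and numpy 2.4.6 under Python 3.11.15, drawing used matplotlib 3.10.9, and hg19 chromosome lengths came from the GenomeInfoDb package.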

Additional observations from a re-analysis of the deposited data

How the results depend on the processing

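Of 134 recomputed values, 99 stayed within 1.5 times (counts) or within the interval or replicate SD of the value given (others). With a mean height of at least 10 there were 1192 sites (0.456 per Mb, fold over local tags 9.49). At 15 there were 146 (0.0559 per Mb, fold 13, centre offset 24 bp, focus ratio 0.873, 19.2% with another shared site within 100 kb). Requiring 12 in each list gave 340 (0.130 per Mb, fold 11.2, SD of the log2 ratio 0.288). A limit of 1 input tag gave 300 (0.115 per Mb) and of 5 gave 675 (0.258 per Mb). A neighbour lay within 10 kb at 2.47% and within 1 Mb at 76.8%. From 1 WT list alone, without the other, there were 697 to 747 sites with folds over local tags of 10.8 to 11. The share overlapping a KO peak was at most 0.148% when the limits were changed, and the adjusted test between WT libraries called 0 sites in all 12 alternatives, which its low power at these tag counts makes uninformative. The recurrence of peaks chosen in 1 list and the shares on chromosomes 15 and 17 were looked at after seeing the data. No paired analysis was possible because no result here comes from a test between genotypes. The tests of sequence and annotation were not run. Medians of 26 and 31 tags per site limit every value of a single site.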

Other observations

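Chromosome 13 held, 179592 bp apart, the tall low-input site with the widest height ratio (chr13:36515548-36515864, heights of 8.38 and 19, focus ratios of 0.905 and 0.915) and one of the least centred (chr13:36335956-36336272, heights of 9.43 and 14.6, focus ratios of 0.607 and 0.511). Both were higher in WT replicate 2.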
